A study of Homo sapiens with 8 samples.

Results

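The chromosome 19 zinc finger genes are the 250 protein-coding genes of RefSeq on this chromosome whose symbols begin with ZNF and a digit, of 1451 protein-coding genes on the chromosome and 19970 on chromosomes 1 to 22 and X. The rule used symbol and position and no measured value, although earlier results of these data were known when it was chosen. Of the 250 genes, 4 have hyphenated symbols and overlap other members. The data were ChIP-seq maps of H3K27ac, an acetylation of histone H3 found at active promoters and enhancers, from the human breast cancer cell line MDA-MB-231, a triple-negative line of mesenchymal, basal-like type. The groups were ARID1A knockout immunoprecipitate, ARID1A knockout input, control immunoprecipitate and control input, with 2 libraries each. ARID1A belongs to the SWI/SNF complex, which moves nucleosomes, and binds DNA within it. The labels named no other allele or agent, and did not say whether the knockout cells were 1 clone or whether replicates came from separate cultures. The titles and sample characteristics gave H3K27ac as the mark, whereas the extraction protocol named an antibody to H3K4me3, a methylation mark of promoters, so which mark was measured rests on the titles and characteristics.

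Most zinc finger genes of this kind encode proteins that bind DNA through arrays of C2H2 fingers, and many carry a KRAB domain. The KRAB domain recruits the corepressor TRIM28 and, through it, the H3K9 methyltransferase SETDB1, and many such proteins silence retrotransposons. The genes multiplied by tandem duplication, and chromosome 19 holds their largest clusters. The finger-coding 3′ parts of many of them are themselves known to carry H3K9 methylation, partly through ZNF274, whereas their promoters can be active.

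Each genotype had a single list of peaks, named for its immunoprecipitate over its input. Each value below is thus 1 value per genotype without replicate error, and the genotypes were compared without a test. The knockout list held 42552 peaks and the control list 39797 on the chromosomes used, and the depth of the libraries is unknown. The fold given for a peak is the authors' enrichment over background, and served to describe and rank peaks within a list. A percentile is the rank of a peak's fold within its own list. A peak was at a gene end if it lay within 1 kb of the first or last base of the gene, and in the gene body if it touched the gene and lay outside both windows. Peaks of the lists that overlapped by at least 1 bp were joined into regions, which were shared, knockout-only or control-only. A gene or region without a peak had none past the authors' threshold, which does not show that the mark was absent. All 10 marker genes of mesenchymal, basal-like cells, such as VIM and CD44, had an end peak in both lists. Of the 10 luminal markers 7 had one in both, with none at CDH1 and PGR in either list and 1 at ESR1 in the knockout list alone. Of 4 blood cell genes 1 had one in both lists, as did 1 of 2 hepatocyte genes (APOA1). Over all protein-coding genes the share in both lists was 61.1%, near that of the luminal markers.

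Promoter sequences of 219 of the 250 genes were matched in the RefSeq promoter table by gene ID (GRCh38.p14, the assembly of hg38), each running from 250 bases before to 50 bases after a transcription start. The 6 printed here carry the contrasts described below. ZNF256 (chr19:57947657-57947956, minus strand) and ZNF671 (chr19:57727575-57727874, minus strand) had a peak over the promoter in the control list alone. ZNF208 (chr19:22010894-22011193, minus strand) had no peak in either list, and the promoter most like it among the members, that of ZNF91 (chr19:23395422-23395721, minus strand), had one in both. ZNF582 (chr19:56393485-56393784, minus strand) is rich in CpG and had no peak, and ZNF274 (chr19:58182811-58183110, plus strand) had the highest fold of the knockout list among the members. Each is written 5′ to 3′ on the strand of its gene, with CpG dinucleotides in capitals.
ZNF256: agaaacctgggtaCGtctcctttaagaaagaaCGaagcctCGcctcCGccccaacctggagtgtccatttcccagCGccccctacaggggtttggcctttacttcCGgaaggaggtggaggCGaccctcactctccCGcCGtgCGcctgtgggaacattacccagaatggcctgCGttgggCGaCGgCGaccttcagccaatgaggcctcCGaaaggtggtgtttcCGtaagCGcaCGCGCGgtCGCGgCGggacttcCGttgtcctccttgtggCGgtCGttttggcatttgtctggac
ZNF671: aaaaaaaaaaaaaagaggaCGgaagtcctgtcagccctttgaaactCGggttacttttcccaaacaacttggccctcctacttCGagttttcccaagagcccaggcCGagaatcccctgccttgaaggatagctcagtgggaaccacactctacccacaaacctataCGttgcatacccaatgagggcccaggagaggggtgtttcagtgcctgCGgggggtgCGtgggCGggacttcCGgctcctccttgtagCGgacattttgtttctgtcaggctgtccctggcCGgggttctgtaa
ZNF208: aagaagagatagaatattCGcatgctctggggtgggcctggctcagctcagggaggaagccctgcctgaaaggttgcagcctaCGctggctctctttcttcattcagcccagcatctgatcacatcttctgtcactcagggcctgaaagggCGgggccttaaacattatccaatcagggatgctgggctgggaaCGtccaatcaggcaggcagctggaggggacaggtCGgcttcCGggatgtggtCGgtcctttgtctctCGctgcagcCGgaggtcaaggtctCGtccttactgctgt
ZNF91: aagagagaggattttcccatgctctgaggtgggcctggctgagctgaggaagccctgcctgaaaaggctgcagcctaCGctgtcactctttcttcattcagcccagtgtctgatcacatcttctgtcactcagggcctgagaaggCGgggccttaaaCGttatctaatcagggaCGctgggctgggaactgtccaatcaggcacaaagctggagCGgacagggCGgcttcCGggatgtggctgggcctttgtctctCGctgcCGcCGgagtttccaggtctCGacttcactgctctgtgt
ZNF582: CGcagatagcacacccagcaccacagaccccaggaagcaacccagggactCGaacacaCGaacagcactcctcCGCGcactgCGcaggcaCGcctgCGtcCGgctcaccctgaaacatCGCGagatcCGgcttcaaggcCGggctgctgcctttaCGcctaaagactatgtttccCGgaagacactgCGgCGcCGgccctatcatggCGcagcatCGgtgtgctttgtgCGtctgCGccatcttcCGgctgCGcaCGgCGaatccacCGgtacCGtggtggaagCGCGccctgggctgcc
ZNF274: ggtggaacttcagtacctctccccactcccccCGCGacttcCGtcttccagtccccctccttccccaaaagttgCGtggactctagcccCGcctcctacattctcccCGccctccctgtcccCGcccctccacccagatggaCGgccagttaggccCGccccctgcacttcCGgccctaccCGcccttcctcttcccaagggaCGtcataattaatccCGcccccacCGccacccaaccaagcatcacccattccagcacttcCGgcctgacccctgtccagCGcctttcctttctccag

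The zinc finger genes were mostly marked at an end in both genotypes. Of the 250 genes, 194 (77.6%, 95% interval 71.9 to 82.6) had an end peak in both lists, 2 in the knockout list alone, 4 in the control list alone and 50 in neither. Over all 19970 protein-coding genes these classes held 61.1%, 1.72%, 1.84% and 35.3%. The shares of members in 1 list alone were 0.8% for knockout and 1.6% for control, near or below the background. The other 1201 genes of chromosome 19 had a peak in both lists for 60.2% (57.4 to 63.0), and the 267 ZNF genes on other chromosomes for 82.0% (76.9 to 86.4). The interval of the members thus overlapped that of ZNF genes elsewhere and lay above that of their chromosome neighbours. Intervals are exact binomial (Clopper-Pearson) and cover counting error only, and neighbouring members are not independent.

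The marked ends were the starts of the genes. Over the 219 members with a known strand, 75.8% had a knockout peak and 76.7% a control peak over the position 100 bases after the 5′ end. At the last base of the gene, 1.83% had a knockout peak and 2.28% a control peak. Within 1 kb of the 3′ end, 14 of 219 members had a knockout peak (6.39%) and 13 a control peak (5.94%), against 12.02% and 13.5% over all genes with a known strand. The 3′ ends of the genes were thus seldom in a peak, in either genotype. Finger-coding sequence itself was not located here.

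**Figure D1:**
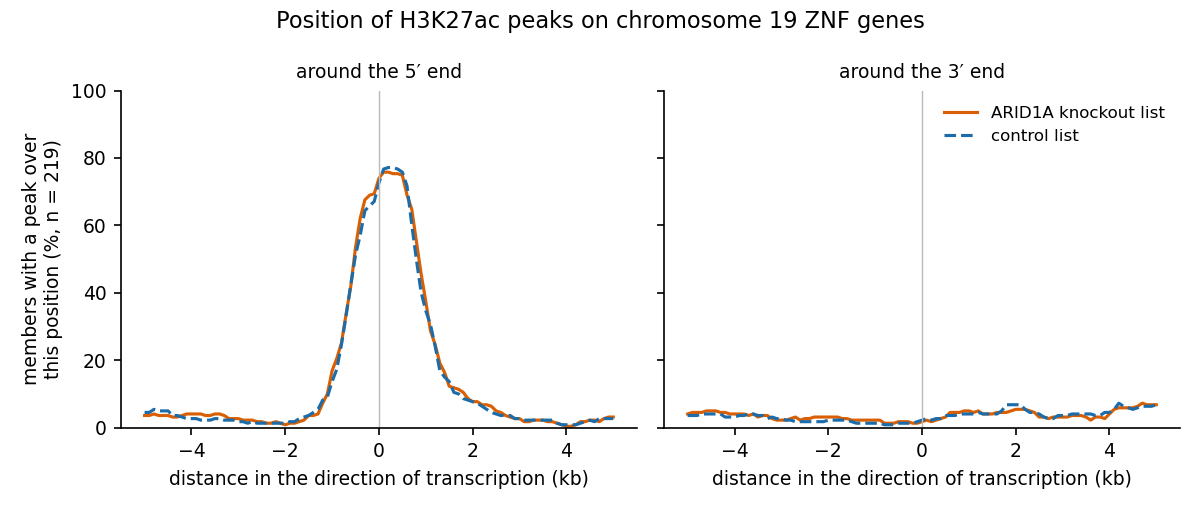
Percent of the 219 members with a known strand that had a peak over each position from 5 kb before to 5 kb after the 5′ end (left) and the 3′ end (right), for the knockout list (solid) and the control list (dashed). Both lists reach their highest share just inside the 5′ end, at 75.8% (knockout) and 77.2% (control), and stay low around the 3′ end.

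The peaks at these genes were narrow and of middling to high strength within their lists. Among the 196 members with a knockout peak at an end, the strongest such peak of each had a median fold of 11.3 (range 2.97 to 30.1), at a median percentile of 78.1. Among the 198 with a control peak the median was 8.62 (2.5 to 24.8), at a median percentile of 72.4. Over all genes with a peak at an end, the median percentile was 83.4 in the knockout list and 80.3 in the control list. The 189 knockout peaks and 189 control peaks at member ends had median widths of 1705 and 1588 bp, against 2198 and 2327 bp for the peaks at all gene ends. Peaks wider than 5 kb numbered 1 of 189 in the knockout list and 3 of 189 in the control list. The corresponding shares at all gene ends were 10.7% and 14.03%.

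The highest folds were at ZNF274 and ZNF787, both in the last cluster of the chromosome. ZNF274, which recruits SETDB1 to the 3′ ends of zinc finger genes, had folds of 30.1 in the knockout list and 19.1 in the control list, at percentiles 99.4 and 97.8. ZNF787 had 29.6 in the knockout list and 24.8 in the control list, the highest control fold of the members. The next knockout folds were those of ZNF700 (25.1), ZNF524 (24.2) and ZNF302 (23.3), whose control folds were 13.2, 18.4 and 18.5. The next control folds were those of ZNF579 (24.0), of ZNF580 and ZNF581 (21.6, from 1 shared peak) and of ZNF653 (20.3), whose knockout folds were 12.5, 13.3 and 13.98. These peaks were shared between genotypes, and the folds of the lists are on different backgrounds and were not compared.

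A few members lay under wide peaks. At ZNF526 a knockout peak of 6303 bp (42215287 to 42221589, fold 17.0) lay within a control peak of 21967 bp (42200491 to 42222457, fold 7.55). ZNF460 had peaks of 4951 bp in knockout and 5362 bp in control, ZNF792 of 4917 and 4702 bp, and ZNF296 of 2354 and 6658 bp. A width also reflects how the peak caller merged neighbouring signal.

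Along the chromosome the members formed 10 clusters of at least 3 genes, separated by more than 1 Mb without a member and lettered A to J from the short-arm end, and 8 members lay outside them. Cluster A, ZNF554 to ZNF77 (2.82 to 2.94 Mb), had an end peak in both lists for 4 of 5 members, and cluster B, ZNF557 to ZNF846 (7.07 to 9.79 Mb), for 13 of 16. Cluster C, ZNF653 to ZNF791 (11.48 to 12.63 Mb), had 22 of 25, and cluster D, ZNF101 to ZNF254 (19.67 to 24.13 Mb), which adjoins the centromere on the short arm, had 27 of 37. On the long arm, cluster E, ZNF302 to ZNF792 (34.68 to 34.96 Mb), had 3 of 5, cluster F, ZNF565 to ZNF573 (36.18 to 37.78 Mb), had 20 of 26, and cluster G, ZNF546 to ZNF780A (40 to 40.09 Mb), had 3 of 3. Cluster H, ZNF575 to ZNF296 (43.53 to 45.08 Mb), had 18 of 24, cluster I, ZNF175 to ZNF331 (51.57 to 53.58 Mb), had 35 of 41, and cluster J, ZNF628 to ZNF446 (55.48 to 58.49 Mb), had 44 of 60. The 95% intervals of these shares overlapped between all 10 clusters, and those of the small clusters were wide, at 14.7 to 94.7% for cluster E, which had the lowest share, and 29.2 to 100% for cluster G, which had the highest.

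**Figure D2:**
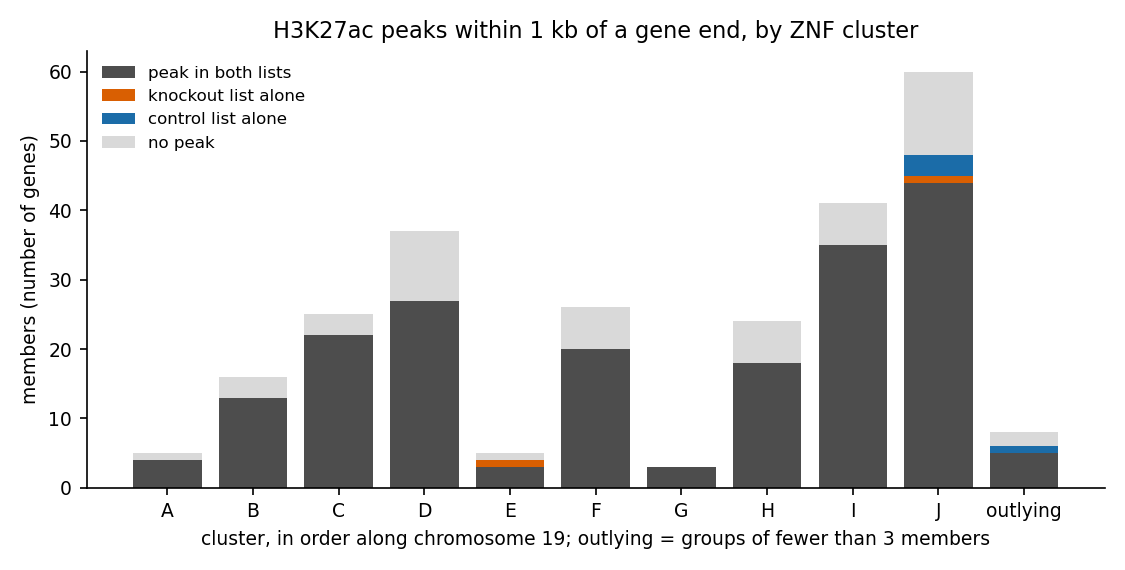
Number of members in each cluster, stacked by whether a peak lay within 1 kb of a gene end in both lists, the knockout list alone, the control list alone or neither. Members with a peak in both lists are the majority in every cluster, and cluster D (10) and cluster J (12) hold the most members without one.

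Median folds at the ends ran from 9.96 in cluster A to 15.2 in cluster G in the knockout list, and from 6.95 in cluster D to 12.5 in cluster B in the control list. Within cluster J alone, the folds ran from 3.23 to 30.1 in the knockout list and from 2.5 to 24.8 in the control list. The members with the highest knockout fold were ZNF555 in A (18.97, control 11.1), ZNF562 in B (17.8, control 12.6), ZNF700 in C, ZNF253 in D (18.4, control 18.9) and ZNF302 in E. They were ZNF566 in F (14.02, control 15.1), ZNF546 in G (16.1, control 12.3), ZNF428 in H (18.8, control 13.7), ZNF432 in I (19.6, control 15.5) and ZNF274 in J. Cluster D had the sparsest peaks, with 11.2 per Mb in the knockout list and 8.74 per Mb in the control list, against 42.7 and 42.1 in cluster H.

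**Figure D3:**
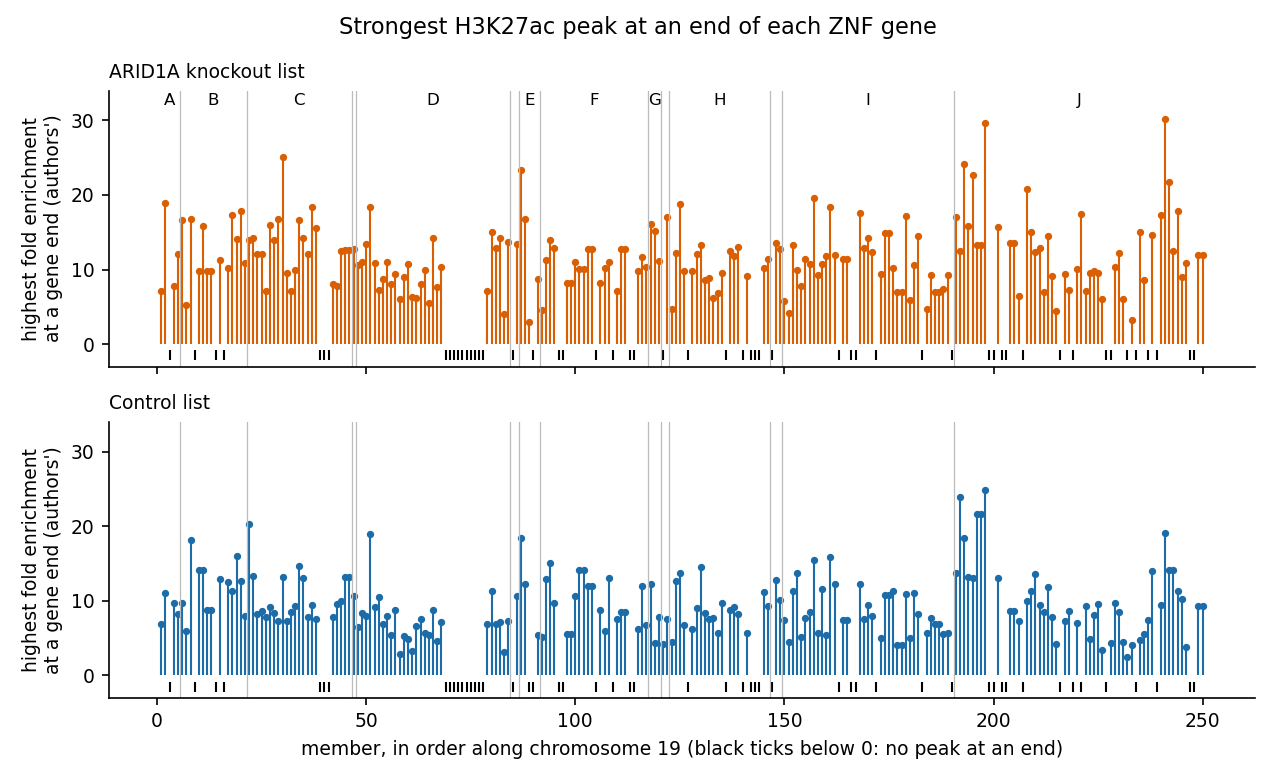
Highest fold enrichment (the authors' value) of a peak at an end of each of the 250 members in their order along the chromosome, for the knockout list (top) and the control list (bottom). Grey lines separate clusters A to J and the members outside them, and black ticks mark members without a peak at an end, with the unbroken row of 10 in cluster D.

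The longest run of members without a peak lay in cluster D and was the same in both genotypes. It held 10 consecutive genes, ZNF208, ZNF257, ZNF676, ZNF729, ZNF98, ZNF492, ZNF99, ZNF723, ZNF728 and ZNF730, over 1207 kb (21939815 to 23147221). No peak of either list lay at an end or in the body of any of them or between them, and no other protein-coding gene lay there. The stretch free of peaks in both lists was 1396 kb long, from 21852492 to 23248911. It was bounded by marked members on both sides. ZNF43 before it had folds of 10.4 in the knockout list and 7.17 in the control list, and ZNF724 after it had 7.11 and 6.95. ZNF91, farther on, which silences SVA retrotransposons, had 15.0 and 11.3. No other run of members without a peak at an end was longer than 3 genes.

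Closely alike promoters in cluster D could differ in the presence of a peak. The ZNF208 and ZNF91 promoters printed above were 86.0% identical over a global alignment, and the first had a peak in neither list and the second in both. For comparison, all other pairs of the printed promoters were 46.6 to 54.3% identical. The 29 matched promoters of cluster D had a median best identity of 82.3% with another member, against 59.3% over all 219. Within cluster D this median was 79.6% for the 5 matched promoters of the run without peaks and 83.0% for the 24 outside it. Reads from such similar sequences can be hard to place, and how multiply mapping reads were treated is not given in the sources used here. Whether placing reads plays a part in the run without peaks was not tested.

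Of the 50 members without a peak at an end, 19 had one inside the gene. A shared peak lay in the body of 16 of them, and for 14 of these it lay over a RefSeq promoter window downstream of the outer gene end. Examples were ZNF529 (fold 14.5 in the knockout list and 14.5 in the control list) and ZNF558 (13.6 and 11.2). Others were ZNF331, an imprinted gene (7.36 and 5.40), and ZNF420, which encodes a regulator of p53 (9.13 and 8.56). All of these genes were marked at an inner start. In ZNF331 a stronger shared peak (12.8 and 9.82) lay farther inside the gene. At RefSeq promoter windows, 184 of 219 members (84.0%) had a peak in both lists, 2 in knockout alone, 6 in control alone and 27 in neither, against 62%, 1.31%, 1.45% and 35.2% of all genes with a window.

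The remaining 31 members had no peak at an end or in the body in either list. Of these 10 were the run in cluster D, 8 lay in cluster J, 3 each in H and I, 2 each in B, F and outside the clusters, and 1 in A. They included ZNF536, the longest member (488 kb), a regulator of neuronal differentiation, which stood alone in a stretch of 1114 kb without a peak in either list. They also included ZNF541, which acts in meiosis, and ZNF154 and ZNF582, whose promoters are known for DNA methylation in tumours. DNA methylation was not measured here.

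The promoters without a peak were not poor in CpG. Counting 1 promoter per gene, that nearest the outer 5′ end, the 33 members without a peak there had a median of 18 CpG dinucleotides in 300 bases, against 20 in the 178 with a peak in both lists. Some of these 33 had a peak elsewhere, such as ZNF329 and ZNF565 at a gene end and ZNF529 in the body. Outside the run in cluster D, the 28 members without a peak over this promoter had a median of 20.5. Over all 15811 genes with a promoter in the table, those without a peak over it had a median of 6. Those with a peak over it in both lists had a median of 27. ZNF541 (49), ZNF667 (42) and ZNF135 (32) had the highest counts among the members without a peak over this promoter, and the ZNF582 promoter printed above had 30. Promoters of cluster D were lower in CpG, with a median of 10 in the 29 matched, whether in the run without peaks (13, n = 5) or outside it (10, n = 24).

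**Figure D4:**
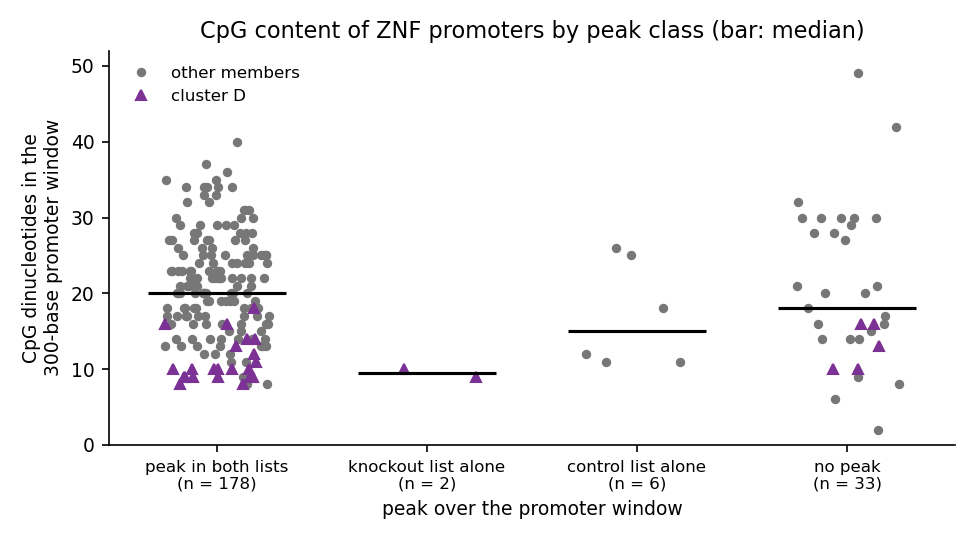
CpG dinucleotides in the 300-base promoter window nearest the outer 5′ end of 219 members, by the presence of a peak over the window. Each point is a gene, triangles are cluster D and bars are medians, of which those with a peak in both lists (20) and without a peak (18) lie close together.

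Promoters of the members often held the core of the ETS family site. The letters CCGGAAG, on either strand, were in 45.2% of the 219 members' promoters and in 14.1% of all 15811 promoters of the same length. They were in 45.5% of members with a peak over the promoter in both lists and in 39.4% of those without a peak over it. In cluster D they were in 72.4%, including all 5 matched promoters of the run without peaks. Outside that run they were in 28.6% of members without a peak over the promoter (8 of 28). Over all genes they were in 21.4% of promoters with a peak in both lists and in 3.04% of those without a peak. Another 6 motifs were searched on both strands, and none of them contains another. The GC box, GGGCGG, was in 67.1% of the members' promoters and in 58.3% of all promoters, but in 68.5% of members and 74.1% of all genes among promoters with a peak in both lists. The YY1 core, AAGATGG, was in 7.76% of members and 6.36% of all, and the TATA box, TATAAA, in 2.28% of members and 9.75% of all. The AP-1 site, written TGANTCA, was in 7.31% of members and 5.70% of all. The ZNF143 core, ACTACAA, was in 5.02% of members and 3.14% of all. Among promoters with a peak in both lists, the TATA box was in 2.25% of members and 4.86% of all, and the YY1 core in 8.99% and 7.76%. There the AP-1 site was in 7.87% of members and 4.19% of all, and the ZNF143 core in 5.62% and 3.96%. The NRF1 core, GCATGCG, was in 5.48% of members and 5.15% of all, but in 4.49% of members and 7.08% of all among promoters with a peak in both lists. The ETS letters were in 45.5% of members and 21.4% of all among those promoters. Members share promoters by descent, so their matches are not independent, and a match is not a bound site.

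Merging gave 194 regions at the ends of members, of which 185 (95.4%) were shared, 4 (2.06%) knockout-only and 5 (2.58%) control-only. Over the regions at the ends of all protein-coding genes the shares were 91.9%, 3.78% and 4.37%. Of the 194 regions, 18 lay at the ends of 2 members at once, and 12 also at an end of another protein-coding gene. A RefSeq promoter window of a member was overlapped by 0 of the 4 knockout-only and 4 of the 5 control-only regions, and by 153 of the 185 shared ones. The same shares over the regions of all genes are not given here. Within shared regions, ZNF66 and ZNF714 had a peak over the promoter window in the knockout list alone. With so few regions this is a count without a test.

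Control-only acetylation of a promoter was clearest at ZNF256. This gene, which encodes a KRAB zinc finger protein, had a control peak whose nearest knockout peak was 11756 bp away (57947161 to 57948375, 1215 bp, fold 7.43, percentile 65.8, −log10 q 16.1). At ZNF671, reported to be silenced by DNA methylation in tumours, the control peak had a fold of 4.31 (57726967 to 57728214, percentile 40.7, −log10 q 7.30), and the nearest knockout peak was 18576 bp away. At ZNF587B the control peak was weak, with a fold of 2.5 at percentile 2.60 and a −log10 q of 1.99. The region at the start of ZNF577, which also lay within 1 kb of an end of ZNF649, a KRAB repressor, had a control fold of 4.52 (51887537 to 51888461, percentile 43.2). ZNF649 itself kept a shared peak at its other end, with a fold of 13.3 in knockout and 11.3 in control. The last control-only region lay at the 3′ end of ZNF574 (387 bp, fold 4.23), 1789 bp from a knockout peak.

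ZNF671, ZNF587B and ZNF256 lay close together in cluster J, in a stretch of 228 kb and 10 members that was singled out after its values were seen. Of these 10 genes 6 had an end peak in both lists, 0 in knockout alone, 3 in control alone and ZNF814 in neither. The stretch was drawn from ZNF671 to ZNF256, so both of its borders are in control alone by choice. Over all protein-coding genes 1.84% were in control alone, and over all members 1.6%. At ZNF587, the neighbour of ZNF587B, the knockout peak (573 bp, fold 3.23) began past the promoter window that the control peak (808 bp, fold 4.10) reached. ZNF417 between them and ZNF256 had a fold of 15.0 at percentile 87.7 in the knockout list and 4.74 at percentile 45.8 in the control list. ZNF776, ZNF586, ZNF552 and ZNF418 had folds of 10.3, 12.2, 6.02 and 8.54 in the knockout list and of 9.73, 8.53, 4.42 and 5.54 in the control list. ZNF587B and ZNF814 have promoters that are 89.8% identical. Whether placing reads plays a part in their classes was not tested.

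Knockout-only regions at gene ends were found at ZNF599, ZNF577, ZNF808 and ZNF776, and 3 of the 4 lay at a 3′ end. The strongest was at the 3′ end of ZNF808, which encodes a repressor of retrotransposons needed for development of the pancreas. It had a fold of 5.50 (52566186 to 52567855, percentile 51.3) and lay 1367 bp from a shared peak at the same gene end (12.9 in knockout and 7.26 in control). That shared peak also covered the promoter window of the next member, ZNF701 (52570037 to 52570336), so the knockout-only region lay near the start of ZNF701 as well. The promoter of ZNF808 had a shared peak too (17.6 and 12.2). ZNF577 had a knockout-only region at its 3′ end (51804651 to 51808112, 3462 bp, fold 4.23) and another in its body (fold 4.36), apart from its control-only promoter region. Both of these knockout-only regions also touched FPR3, a gene of another kind. Further knockout-only regions lay just before them, at or near FPR1 and FPR3 (51751406 to 51801038), so they are not particular to ZNF577. The region at ZNF599 covered the outer 5′ end (fold 2.97, percentile 16.3), whereas the RefSeq promoter window of this gene lay inside it, under a shared peak. The region at ZNF776 had a fold of 3.08.

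The 1 kb limit decided the class of few genes. ZNF550 was counted for the knockout list alone because its knockout peak (57558783 to 57560468, fold 17.5) came within 927 bp of the gene end and its control peak (57558878 to 57559886, fold 10.6) stopped 1509 bp short, although the peaks overlapped. ZNF358 was just inside in both lists, at 876 bp in knockout (fold 5.27) and 981 bp in control (fold 5.99), and ZNF575 was inside at 642 bp in control (fold 4.43). ZNF225 was just outside in both, at 1128 bp (fold 10.7) and 1270 bp (fold 7.13), and ZNF574 was outside in the knockout list at 1518 bp (fold 3.45). In the knockout list 185 members had a peak over the gene end itself, and in the control list 181.

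Inside the genes, peaks were less common. Of the 250 members, 43 (17.2%) had a peak in the body in both lists, 14 (5.6%) in knockout alone and 4 (1.6%) in control alone, against 28.5%, 4.32% and 5.65% of all protein-coding genes. These classes count peaks rather than regions. ZNF430 in knockout alone and ZNF550 in control alone were counted through peaks that belong to shared regions at a gene end. The 77 regions in member bodies were shared for 54 (70.1%), knockout-only for 16 (20.8%, 95% interval 12.4 to 31.5) and control-only for 7 (9.09%, 3.73 to 17.8). Over regions in the bodies of all genes the shares were 57.1%, 22.5% and 20.5%. The knockout-only share was thus near the background, and the interval of the control-only share lay below it. Of the 54 shared regions, 6 were at an end of another member.

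The knockout-only regions in bodies were mostly weak, with a median fold of 3.19. The strongest (8.60, percentile 68.2; 36223300 to 36227236, 3937 bp) lay inside both ZNF565 and ZNF146, which encodes a protein made of fingers alone and whose start, inside ZNF565, had a shared peak (11.3 in knockout and 12.9 in control). ZNF841 had 2 knockout-only regions, with folds of 7.06 (52068819 to 52071979) and 4.02. The next were in ZNF333 (4.45), ZNF577 and ZNF565 (3.67), and ZNF91 had a weak one (3.20). Of the control-only regions the strongest was in ZNF331 (53537107 to 53538871, fold 6.94, percentile 62.8), which held a second (4.17) beyond its strongest shared peak. The others were in ZNF575 (3.82, over a promoter), ZNF610 (3.13), ZNF814 (2.77), ZNF611 (2.66) and ZNF83 (2.54), and ZNF83 also had a knockout-only region (3.13).

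Over the whole spans of the clusters, including other genes and the space between genes, knockout-only regions outnumbered control-only ones. Of 450 regions 360 (80%) were shared, 61 (13.6%, 95% interval 10.5 to 17.1) knockout-only and 29 (6.44%, 4.36 to 9.12) control-only. Over all 48662 regions of the chromosomes used the shares were 65.7%, 19.6% and 14.7%, so the knockout-only excess in the clusters ran the same way as in the whole lists, with lower shares of both kinds. Over the 1961 regions of chromosome 19 they were 75.2%, 11.2% and 13.6%. Against these, the interval of the knockout-only share in the clusters lay below that of the whole lists and held that of the chromosome, and the interval of the control-only share lay below both. Of the 61 knockout-only regions 18 lay at an end or in the body of a member and 28 lay between genes. Of the 29 control-only regions 11 lay at a member and 7 between genes. With both lists limited to a −log10 q of at least 5, an alternative chosen after seeing the data, 47 knockout-only and 13 control-only regions were left, although this limit removed more control than knockout peaks.

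**Figure D5:**
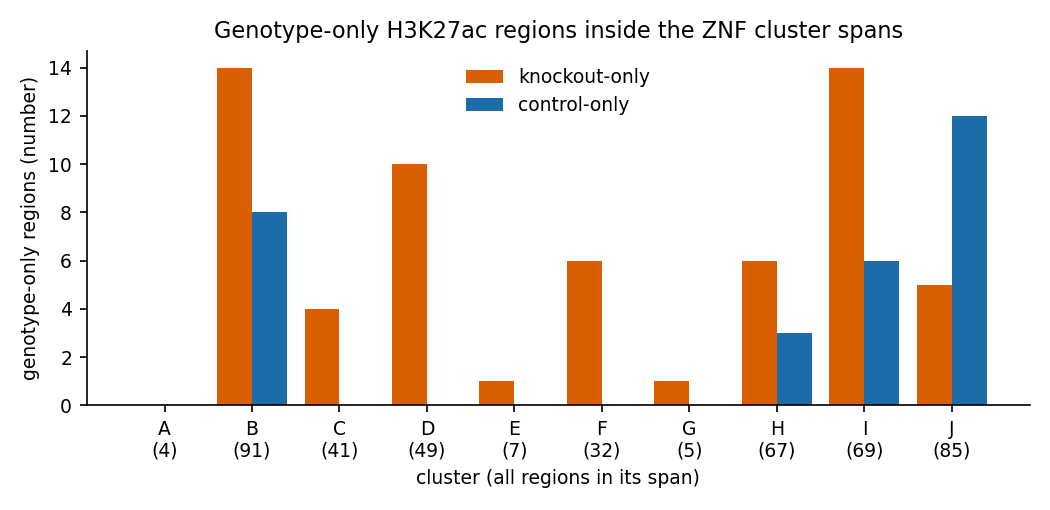
Number of knockout-only (left bar of each pair) and control-only regions (right bar) in the span of each cluster, with the number of all regions in parentheses. Clusters C to G held knockout-only regions and 0 control-only ones, whereas cluster J held 5 knockout-only and 12 control-only regions.

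Of the 49 regions in cluster D, 10 were knockout-only (20.4%, 95% interval 10.2 to 34.3) and 0 control-only (interval 0 to 7.25). The knockout-only interval held the shares of the whole lists (19.6%) and of chromosome 19 (11.2%). The control-only interval lay below those of the whole lists (14.7%) and of chromosome 19 (13.6%). The most prominent was a knockout-only peak of 15993 bp between genes (23546212 to 23562204, fold 13.1, percentile 83.0), 90.6 kb from ZNF675, which encodes an inhibitor of TRAF6 signalling. The other 9 had folds from 2.45 to 5.30. At starts in cluster D, ZNF66 and ZNF714 had shared regions whose knockout peaks (973 and 1705 bp, folds 6.05 and 6.37) overlapped the promoter window and whose control peaks (344 and 689 bp, folds 2.86 and 3.25) did not reach it. Of the 85 in cluster J, 5 were knockout-only (5.88%, 1.94 to 13.2) and 12 control-only (14.1%), and this control-only share was near those of chromosome 19 and of the whole lists. Of its 12 control-only regions 4 were at members, and the highest fold was 7.94 in SSC5D, a gene of another kind. No test of the difference between these clusters was made, and regions within a cluster are not independent.

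Most genes in a chosen list of corepressor and heterochromatin genes were marked in both genotypes. Of these 21 genes, 20 had an end peak in both lists, 0 in knockout alone and 0 in control alone, and UHRF1, which links histone and DNA methylation, had none. Over all protein-coding genes the shares were 61.1% in both lists, 1.72% in knockout alone, 1.84% in control alone and 35.3% in neither. With single-list shares that low, counts of 0 among 21 genes say little. TRIM28 lies just beyond cluster J (58544064 to 58550715) and had folds of 17.6 in knockout and 9.40 in control. SETDB1 had 7.99 and 8.01, and MORC2 and TASOR, which work in HUSH-dependent silencing, had 22.02 and 26.5 in knockout and 13.4 and 21.2 in control.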

How the data were processed

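H3K27ac ChIP-seq had been done in 8 libraries of MDA-MB-231 cells. The submitters' processing notes name Bowtie2 2.3.5.1, MACS2 2.2.6 and hg38. Options, read filters, depth and whether a list rests on 1 or both replicates are not given in the sources used here. Each deposited list came from peak calling, and per the file headers the authors gave each peak a position, pileup (a coverage signal), −log10 p-value, fold enrichment (a ratio) and −log10 q-value, used as deposited. The pileup and the p-value were not used for any result. Lists were assigned to genotypes by the names of the 2 deposited tables.

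Gene positions came from RefSeq (GRCh38.p14), and promoters and strands from its promoter table. Peak and gene overlaps were computed with pandas 2.3.3, numpy 2.4.6 and scipy 1.17.1 under Python 3.11.15, tested on simulated data, and gave the same counts as bedtools 2.31.1. Promoters were aligned globally with Biopython 1.88. Figures used matplotlib 3.10.9. Finger counts were not computed, since no protein sequences were used here. The members and lists were chosen with earlier results of these data known. Genes were named by a rule on class, fold, width, cluster and distance to the window. Alternatives were other windows, peak limits, overlaps, cluster gaps and members.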

Additional observations from a re-analysis of the deposited data

Results flagged for a closer look

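Scaffolds not assembled into chromosomes carried 8 peaks of the knockout list and 6 of the control list. They stand out as signal that no comparison here included.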

How the results depend on the processing

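Of 101 values recomputed under other settings, 79 kept within 1.5 times the main count or within the interval of the main share and 22 moved further. Members with a peak in the knockout list alone (2) became 1 with windows of 500 bp, 1 with 2 kb, and 5 with a −log10 q of at least 5 or with the upper 75% of each list by fold. ZNF671 and ZNF256 were in the control list alone under all 4 of these, whereas ZNF587B and ZNF599 had no peak left under the −log10 q limit or in the upper 75%. Knockout-only regions at ends (4) became 2 with 500 bp, and control-only ones (5) became 9 with 2 kb. In bodies, the −log10 q limit left 9 knockout-only and 2 control-only regions, and the upper 75% left 9 and 4. In the clusters the upper 75% left 45 knockout-only and 19 control-only regions, and the −log10 q limit left 47 knockout-only and 13 control-only ones. In cluster J the −log10 q limit left 1 knockout-only and 6 control-only regions, and the upper 75% left 2 and 9, so its order was kept. In cluster D these left 8 and 7 knockout-only regions and 0 control-only ones. The share of all genes with a peak in both lists was 58.6%, 59.3%, 63.2% and 59.6% under the −log10 q limit, the upper 75%, 2 kb and 500 bp, and that of the other chromosome 19 genes was 64.4% with 2 kb. A gap of 2 Mb gave 6 clusters, the largest with 104 members. The run of 10 members without a peak was as long with 2 kb and with the −log10 q limit. The alternatives for regions within clusters and for the run were chosen after seeing the data. The cause of these shifts was not tested. The −log10 q limit kept 31598 knockout and 26745 control peaks, so it was not alike for both lists. No paired analysis was possible because each genotype had 1 peak list, and for the same reason no replicate could be left out.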
